A study of Gallus gallus with 4 samples.

Results

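Mitochondrial ribosomal protein genes, the nuclear genes named MRPL or MRPS followed by a number, were compared between the breast (pectoralis) muscle of Ross 708 broilers and of Isfahani chickens at day 28 after hatching. Of 18973 rows in the expression table, 58 carry such a symbol alone. They stand for 56 genes, because MRPL18 and MRPS27 are each on 2 rows, and 55 of the 56 genes were tested by the authors. Ross 708 is a commercial broiler line selected for rapid growth and breast meat, and Isfahani birds are native chickens of Iran; no other treatment is given for either group. Each breed had 2 libraries, each made from a pool of 3 muscle RNA samples, and the table gives 1 FPKM value per breed (fragments of a transcript, scaled to its length and to the number of mapped fragments), so no value below has an SD and the spread between pools enters only through the authors' own test. The labels give neither the sex of the birds nor whether each RNA sample came from a different bird, and the table's column "Commercial" was read as Ross 708 because the other column, "Native", matches the Isfahani label.

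Mitochondria have ribosomes of their own. Their ribosomal RNAs are transcribed inside the organelle, whereas all of their proteins are encoded in the nucleus, made in the cytosol and imported. These ribosomes serve a handful of messenger RNAs of the mitochondrial genome, which encode core subunits of the respiratory chain and of ATP synthase, so the chain depends on cytosolic as well as on mitochondrial translation. Some mitochondrial ribosomal proteins descend from bacterial ribosomal proteins, and others have been added in the mitochondrial lineage. Chicken breast muscle consists almost wholly of fast glycolytic fibres, which hold fewer mitochondria than red fibres.

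Most mitochondrial ribosomal protein genes of both subunits had slightly lower values in Ross 708 muscle, and no single gene passed the authors' test. Of the 55 tested genes, 48 had a lower value in Ross 708 and 7 a higher one, and the median log2 ratio was -0.23, computed as log2 of (Ross 708 FPKM + 1) over (Isfahani FPKM + 1). Between 45 and 50 genes were lower when the breeds were scaled in other ways. Summed over the 55 genes the level was 3374 FPKM in Ross 708 and 3958 FPKM in Isfahani, a difference of -14.8%. This sum takes in MRPS36, which was placed in neither subunit. The subunit sums differed by -13.4% for the large and by -13.8% for the small subunit. The sum over all tested rows differed by -3.38%. That over tested rows with a mean FPKM in the range of these genes differed by -7.85%. None of the 55 passed a q-value of 0.05 in the authors' deposited table, in either direction, where 3.07% of all 11626 tested rows were called higher and 2.14% lower in Ross 708, 5.21% in all. An unadjusted p-value of 0.05 or less was given to 5 genes in the same data, against 17% of all tested rows (9.06% higher and 7.96% lower in Ross 708). They were MRPL47, MRPL10, MRPS23 and MRPS30, lower in Ross 708, and MRPS25, higher in Ross 708.

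The shares of lower values need the background beside them. Over all tested rows 53.5% had a ratio below 0 and the median was -0.03. Among the 5747 tested rows whose mean FPKM lay within the range of these genes, 62.8% were below 0 and the median was -0.12. Rows in this range thus leaned towards Isfahani in general. They are called rows of like level below, but they were not matched in level. Their median was 16.6 FPKM in Ross 708 and 17.8 FPKM in Isfahani, against 42.8 FPKM in Ross 708 and 52.8 FPKM in Isfahani for the 55 genes. Comparisons with them, of shares and of spread, are therefore rough. Of these rows of like level, 3.17% were called higher and 3.18% lower in Ross 708, 6.35% in all, and an unadjusted p of 0.05 was reached by 7.83% for a higher and 11.4% for a lower value, 19.2% in all. The mitochondrial ribosomal protein genes reached it at 1.82% for a higher and 7.27% for a lower value, both below the shares of the rows around them. In the share of lower values they stood at 87.3%. Their ratios were also packed more closely, with an interquartile range of 0.32 on the log2 scale, against 0.52 for the rows of like level. A ratio at or below -0.5 was found for 9 of 55 genes (16.4%), for 15.3% of rows of like level and for 12.4% of all tested rows, and a ratio at or above 0.5 for 1 gene (1.82%), for 10.6% of such rows and for 12.9% of all tested rows. No test of the list as a whole was made, and genes of the same pools are not independent, so these shares are a description.

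The size of these differences bears on the absence of calls. Among rows of like level the smallest absolute log2 ratio that the authors' test called was 0.76, and the median of called rows was 1.07. The largest absolute ratio among the mitochondrial ribosomal protein genes was 0.77, that of MRPL47. Of 882 rows of like level with an absolute ratio between 0.5 and that value, 4 were called (0.454%). Since the smallest called ratio was 0.76, these 4 lie at the upper end of that range, and the share adds nothing to it. Most of the 55 genes had absolute ratios under 0.5, with a median log2 ratio of -0.23. No row of like level with so small a ratio was called with 2 pools per breed. A missing call therefore does not show that the breeds had the same level.

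**Figure D1:**
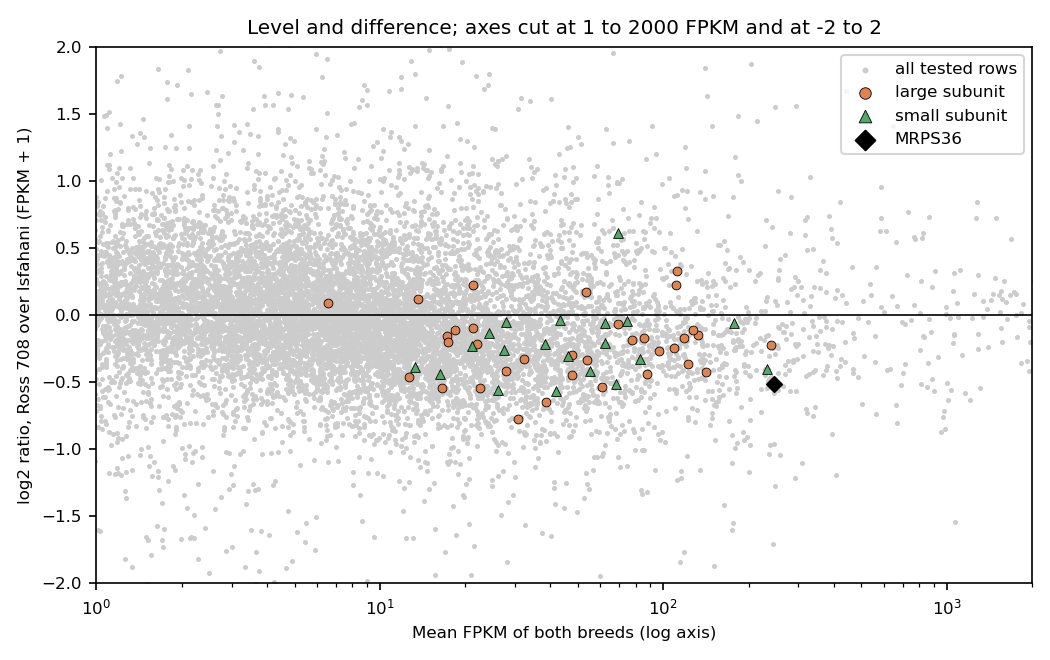
The log2 ratio of Ross 708 over Isfahani (vertical) is plotted against the mean FPKM of both breeds on a log axis (horizontal) for tested rows in grey, with the 34 large-subunit genes as circles, the 20 small-subunit genes as triangles and MRPS36 as a diamond; rows beyond the axes are not shown. The genes lie at mean levels of 6.56 to 245 FPKM with ratios from -0.77 to 0.61; 48 are below 0 and 7 above, MRPS25 alone above 0.5.

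Most proteins of a ribosome are present in a single copy, yet their transcripts stood at very different levels. FPKM ranged from 6.80 for MRPL22 to 222 for MRPL17 in Ross 708, a 32.6-fold span. In Isfahani it ranged from 6.32 for MRPL22 to 288 for MRPS36, a 45.6-fold span. MRPS36 was placed in neither subunit, and the highest subunit gene in Isfahani was MRPS18C at 263 FPKM. The order was nearly the same in both breeds (Spearman's rho 0.97 over the 55 genes, a description across genes that share the same libraries). For 40 genes the rank by FPKM differed by 3 places or fewer between breeds. The largest shift was that of MRPS25, at rank 14 in Ross 708 and 27 in Isfahani. In both breeds 54 of the 55 genes had at least 10 FPKM, except MRPL22. The median level was 42.8 FPKM in Ross 708 and 52.8 FPKM in Isfahani, compared with 6.96 FPKM in Ross 708 and 6.93 FPKM in Isfahani over all tested rows.

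**Figure D2:**
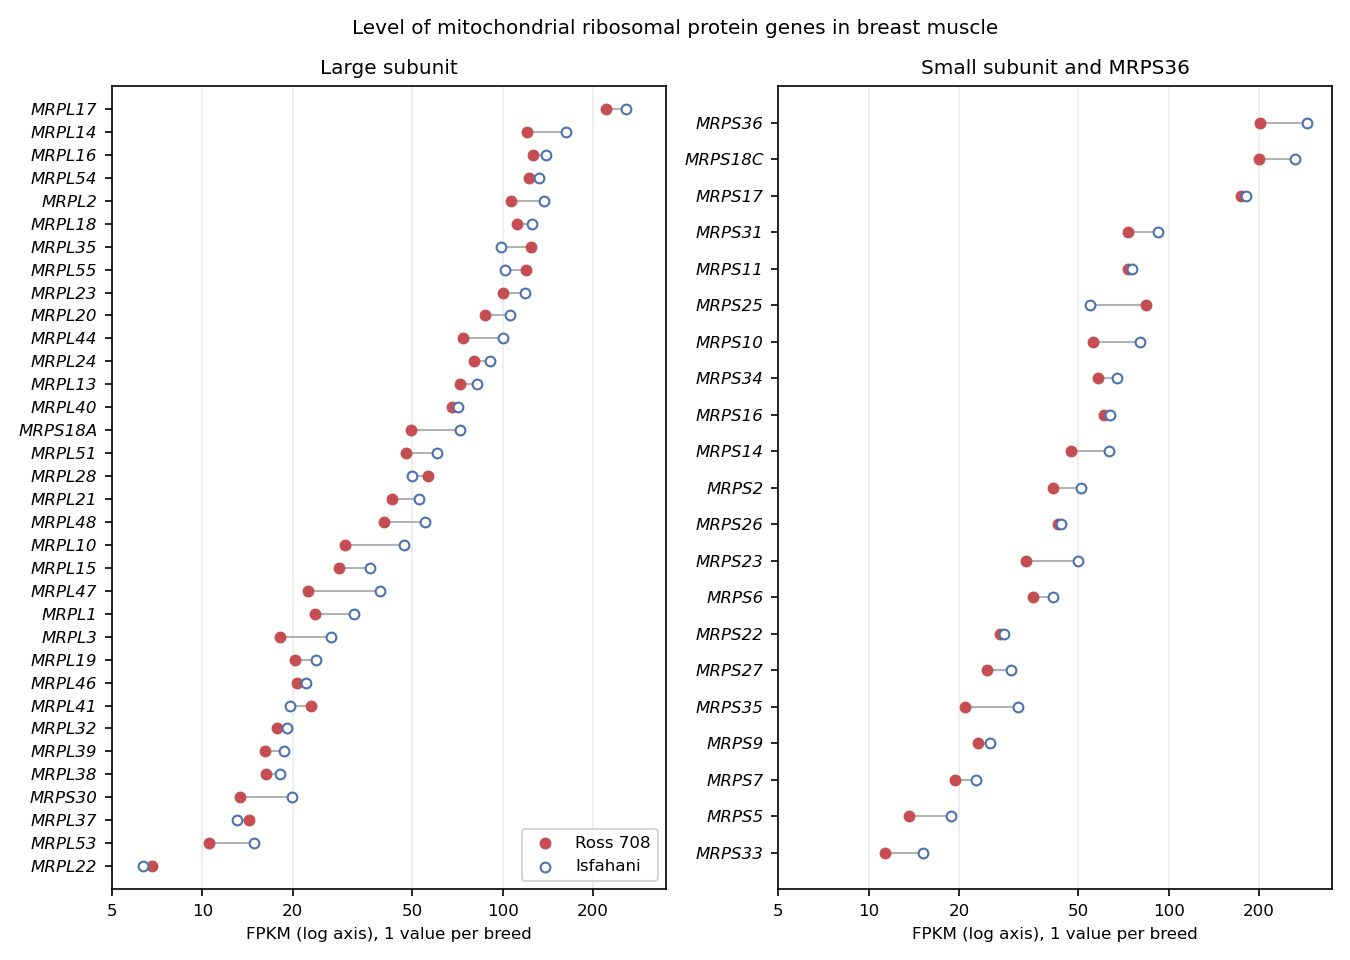
FPKM of each tested gene (log axis) in Ross 708 (filled red) and Isfahani (open blue), with large-subunit genes at left and small-subunit genes and MRPS36 at right, ordered by mean level. Most red points lie a short way to the left of their blue partner, and MRPS25 shows the widest gap in the other direction, 84.0 FPKM in Ross 708 against 54.7 FPKM in Isfahani.

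The most abundant transcripts came from a few genes. MRPS36 stood at 202 FPKM in Ross 708 and 288 FPKM in Isfahani. Its product carries a ribosomal name but in mammals and yeast is known as a subunit of the oxoglutarate dehydrogenase complex of the citrate cycle, so it was kept out of both subunit groups. MRPL17, a protein close to the exit of the peptide tunnel, had 222 FPKM in Ross 708 and 259 FPKM in Isfahani. MRPS18C, the mitochondrial form of the bacterial platform protein S18, had 199.5 FPKM in Ross 708 and 263 FPKM in Isfahani. Its locus overlaps those of FAM175A and HELQ, so its level is less certain. MRPS17, which binds the small ribosomal RNA early in assembly in bacteria, had 174 FPKM in Ross 708 and 181 FPKM in Isfahani. The next in level were MRPL14 (121 FPKM in Ross 708, 162 FPKM in Isfahani), MRPL16 (126 FPKM in Ross 708, 139 FPKM in Isfahani), MRPL54 (122 FPKM in Ross 708, 132 FPKM in Isfahani) and MRPL2 (106 FPKM in Ross 708, 137 FPKM in Isfahani). The locus of MRPL2 overlaps 4 other rows, SRF and PTK7 among them, and that of MRPL54 overlaps 1. With 1 value per breed, whether neighbours in this order differ beyond the spread between pools could not be tested.

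At the lower end stood MRPL22, whose bacterial relative lines the peptide tunnel, with 6.80 FPKM in Ross 708 and 6.32 FPKM in Isfahani. Its locus overlaps CNOT8 and GEMIN5. MRPL53 had 10.5 FPKM in Ross 708 and 14.8 FPKM in Isfahani, and MRPS33 had 11.3 FPKM in Ross 708 and 15.2 FPKM in Isfahani. Both are proteins without a bacterial relative. MRPL37 (14.3 FPKM in Ross 708, 13.0 FPKM in Isfahani), MRPS5 (13.6 FPKM in Ross 708, 18.9 FPKM in Isfahani) and MRPS30 (13.4 FPKM in Ross 708, 19.9 FPKM in Isfahani) completed the lowest 6. MRPS12, the decoding-centre protein, is listed at 0 in both breeds on an unplaced scaffold and was not tested. Among the roster of 78 such proteins known from mammals, 56 had a row of their own and 3 (MRPL50, MRPS15 and MRPS21) shared a row with another gene. The other 19, MRPL12 and MRPL45 among them, are not analysed here, apart from MRPL58, which stands in the table under its older name ICT1. The 3 shared rows had log2 ratios of -0.13, -0.25 and -0.26.

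Levels were set out by class of protein, bacterial-type or mitochondrion-specific, as the structure-based names give it. Bacterial-type genes of the large subunit had a median of 72.2 FPKM in Ross 708 and 82.4 FPKM in Isfahani. Mitochondrion-specific ones had 23.1 FPKM in Ross 708 and 22.1 FPKM in Isfahani. In the small subunit the medians were 47.1 FPKM in Ross 708 and 63.3 FPKM in Isfahani for bacterial-type genes, and 33.4 FPKM in Ross 708 and 43.9 FPKM in Isfahani for mitochondrion-specific ones. Median log2 ratios were -0.22 for 21 bacterial-type and -0.20 for 13 mitochondrion-specific genes of the large subunit, and -0.23 for 11 bacterial-type and -0.26 for 9 mitochondrion-specific genes of the small subunit. The summed level of the small subunit differed by -16.1% for bacterial-type and by -8.90% for mitochondrion-specific genes, MRPS25 among them, and that of the large subunit by -12.4% and -16.5% in the same order. None of these differences was tested, since there is 1 value per breed.

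The large subunit joins amino acids and feeds the growing chain into its tunnel. Its 34 tested genes had a median log2 ratio of -0.22, and 28 of them had a lower value in Ross 708. MRPL47 (chromosome 9, 16907571 to 16911041), the mitochondrial counterpart of the bacterial tunnel-exit protein L29, had 22.5 FPKM in Ross 708 and 39.0 FPKM in Isfahani, a log2 ratio of -0.77. That is the most negative ratio of all 55 genes, with an unadjusted p of 0.00455 and a q-value of 0.0723 in the authors' deposited table, the smallest q-value among them. MRPL10 (chromosome 27, 3899689 to 3901663), the base of the stalk that recruits translation factors, had 29.8 FPKM in Ross 708 and 47.1 FPKM in Isfahani, a log2 ratio of -0.64 with p = 0.0168 and q = 0.162 by the authors' deposited table. MRPS30 and MRPS18A bear small-subunit names but sit in the large subunit in mammalian structures, and are counted there as mitochondrion-specific. That class follows their structure-based names, mL65 and mL66, and does not settle descent. MRPS18A shares the S18 gene name with MRPS18C, which is counted as bacterial-type. MRPS30 (13.4 FPKM in Ross 708, 19.9 FPKM in Isfahani) had a log2 ratio of -0.54 (p = 0.0329, q = 0.233), and MRPS18A (49.6 FPKM in Ross 708, 72.3 FPKM in Isfahani) had one of -0.54 (p = 0.0798, q = 0.373), both p and q from the authors' deposited table. MRPL3, which reaches towards the catalytic centre in bacterial ribosomes, stood at 18.1 FPKM in Ross 708 and 26.8 FPKM in Isfahani, a log2 ratio of -0.54. With MRPL2 (-0.36) and MRPL16 (-0.14) it gave the 3 proteins near the catalytic centre a median of -0.36.

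Groups of neighbours within the large subunit were chosen after the values were seen, and each had a negative median. Since 28 of the 34 large-subunit genes had lower values in Ross 708, these medians add no support of their own. For the side stalks, only MRPL1, MRPL10 and MRPL53 were grouped. They had log2 ratios of -0.42, -0.64 and -0.46 and summed to 63.9 FPKM in Ross 708 and 93.9 FPKM in Isfahani. This stalk group is not complete either. MRPL11 and MRPL12 had no row of their own, and MRPL54, left out of it, had a ratio of -0.11. For the central protuberance, a crest of the large subunit, 5 proteins were grouped (MRPL18, MRPL38, MRPL40, MRPL46 and MRPL48). They had ratios from -0.45 for MRPL48 to -0.07 for MRPL40. The group is not complete: MRPL55, the assigned counterpart of bacterial L31, was left out of it and had a ratio of 0.22. Among 5 proteins of the tunnel exit the ratios ran from -0.77 for MRPL47 to 0.09 for MRPL22, with a median of -0.22. MRPL44, which has the fold of an RNase III enzyme, had 74.1 FPKM in Ross 708 and 101 FPKM in Isfahani, a log2 ratio of -0.44. MRPL48 had 40.1 FPKM in Ross 708 and 55.1 FPKM in Isfahani. MRPL20, needed early in assembly of the bacterial large subunit, had 87.6 FPKM in Ross 708 and 105 FPKM in Isfahani, and MRPL24, an assembly initiator there, had 80.5 FPKM in Ross 708 and 90.7 FPKM in Isfahani. MRPL13 (72.2 FPKM in Ross 708, 82.4 FPKM in Isfahani), MRPL21 (42.7 FPKM in Ross 708, 52.8 FPKM in Isfahani), MRPL15 (28.6 FPKM in Ross 708, 36.0 FPKM in Isfahani) and MRPL19 (20.4 FPKM in Ross 708, 23.8 FPKM in Isfahani), all of bacterial descent, had ratios between -0.32 and -0.19. MRPL48, MRPL20, MRPL24 and these 4 genes had the lower value in Ross 708, and their log2 ratios lay closer to 0 than those of MRPL47 and MRPL10. The loci of MRPL1, MRPL13, MRPL18, MRPL22, MRPL48 and MRPL54 overlap other rows, so their values are less certain.

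Higher values in Ross 708 were found for 6 large-subunit genes. MRPL35 had 124 FPKM in Ross 708 and 99.0 FPKM in Isfahani, a log2 ratio of 0.33, on a locus that overlaps REEP1. MRPL41 had 23.1 FPKM in Ross 708 and 19.6 FPKM in Isfahani, on a locus that overlaps DPH7. MRPL55, assigned as the mitochondrial counterpart of bacterial L31, had 119 FPKM in Ross 708 and 102 FPKM in Isfahani. MRPL28, MRPL37 and MRPL22 had log2 ratios of 0.17, 0.12 and 0.09, and the last pair turned below 0 when both breeds were rescaled to the same sum over all rows. Unadjusted p-values of these 6 genes lay between 0.437 and 0.853 in the authors' deposited table.

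The small subunit binds the messenger RNA and reads its codons. Its 20 tested genes had a median log2 ratio of -0.24, and 19 had a lower value in Ross 708. MRPS23 (chromosome 19, 8751273 to 8753292), a mitochondrion-specific protein, had 33.4 FPKM in Ross 708 and 50.1 FPKM in Isfahani, a log2 ratio of -0.57 (p = 0.0371, q = 0.249 in the authors' deposited table). MRPS35, another mitochondrion-specific protein, had 21.0 FPKM in Ross 708 and 31.4 FPKM in Isfahani, a log2 ratio of -0.56. MRPS10, a protein of the head in bacteria, had 55.8 FPKM in Ross 708 and 80.1 FPKM in Isfahani, a log2 ratio of -0.51. The 4 bacterial-type head proteins grouped here (MRPS7, MRPS9, MRPS10 and MRPS14) had lower values in Ross 708. They summed to 145 FPKM in Ross 708 and 192 FPKM in Isfahani. The loci of all 4 overlap another row, so their values are less certain. Mitochondrion-specific proteins were not sorted into head and body. The 6 bacterial-type proteins of body and platform (MRPS5, MRPS6, MRPS11, MRPS16, MRPS17 and MRPS18C) had log2 ratios from -0.44 to -0.04, with a median of -0.14. Of those 6, MRPS16 and MRPS18C have overlapping loci. The 4 bacterial-type head proteins had ratios from -0.51 to -0.13, with a median of -0.32. All 11 tested bacterial-type genes of the small subunit had lower values in Ross 708. The direction of the head and body groups therefore adds no support of its own, and the difference between them was not tested. Among mitochondrion-specific proteins, MRPS31 had 73.1 FPKM in Ross 708 and 92.0 FPKM in Isfahani, and MRPS34, known to be needed for small-subunit stability in mammals, had 58.0 FPKM in Ross 708 and 67.1 FPKM in Isfahani. MRPS2, of bacterial type, had 41.3 FPKM in Ross 708 and 51.1 FPKM in Isfahani. For MRPS11, MRPS16, MRPS17, MRPS22 and MRPS26 the log2 ratios lay between -0.06 and -0.04, and those of MRPS11, MRPS22 and MRPS26 turned above 0 when the breeds were centred on the median row.

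MRPS25 stood apart from the other small-subunit genes. It encodes a mitochondrion-specific protein of the small subunit (chromosome 12, 19720524 to 19721878) and had 84.0 FPKM in Ross 708 and 54.7 FPKM in Isfahani, a log2 ratio of 0.61. Its unadjusted p was 0.0201 and its q-value 0.179 in the authors' deposited table, so the difference did not pass. It is the sole small-subunit gene with a higher value in Ross 708, and no other row overlaps its locus. The next ratio in the small subunit was that of MRPS26, at -0.04. Over the pseudocounts and scalings tried its ratio lay between 0.48 and 0.66.

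**Figure D3:**
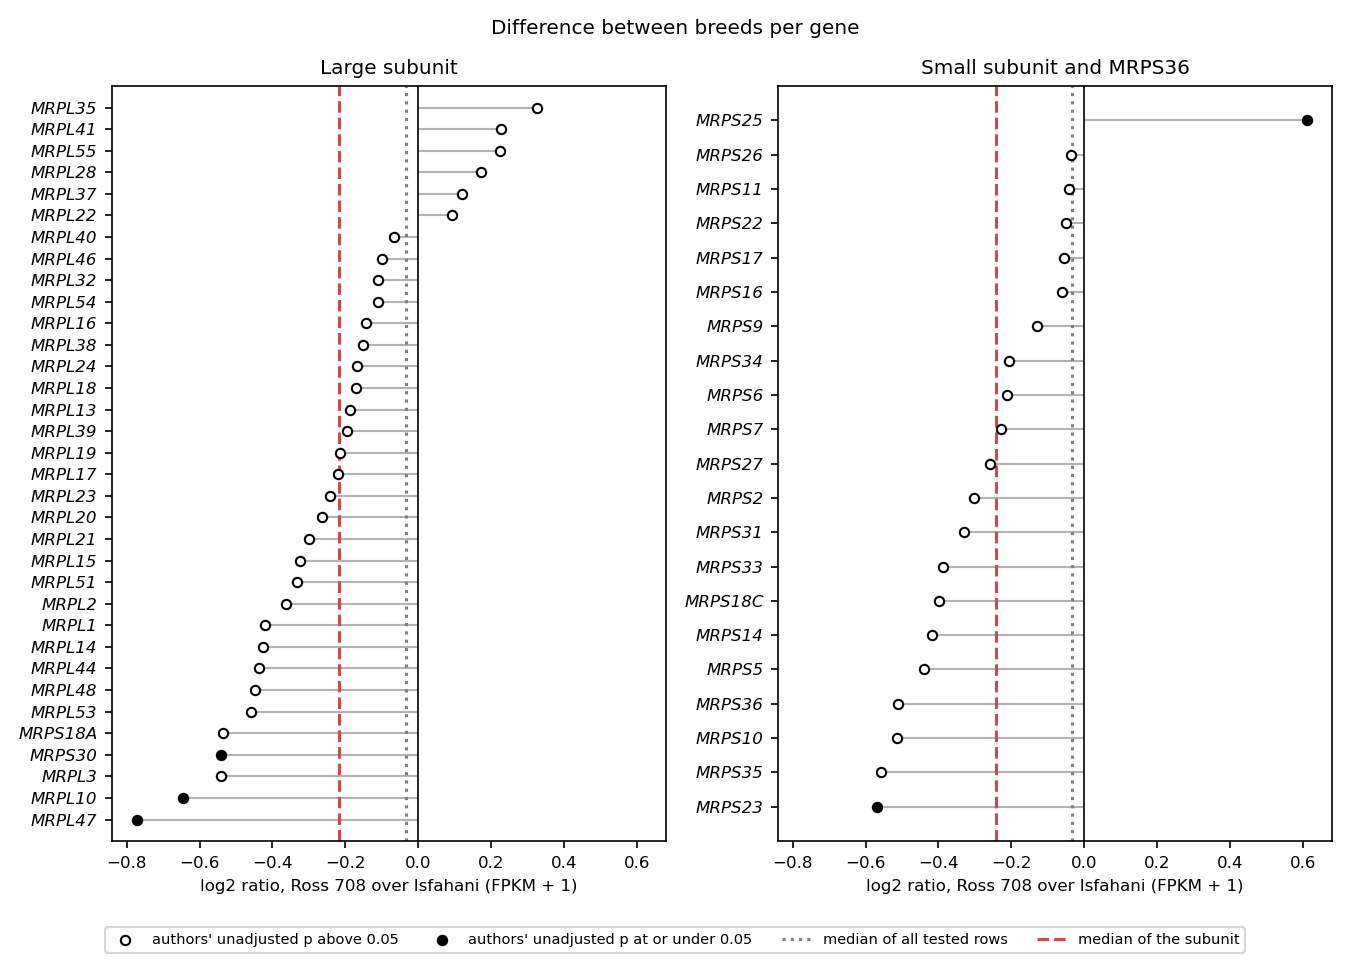
The log2 ratio of Ross 708 over Isfahani is shown per gene for the large subunit (left) and for the small subunit with MRPS36 (right); filled points have an unadjusted p at or under 0.05 in the authors' deposited table, the dashed red line is the subunit's median and the dotted line the median of all tested rows, -0.03. In both panels nearly all points lie left of 0, and the subunit medians are -0.22 and -0.24.

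The genes are scattered over 20 chromosomes, and neighbours were compared where 2 of them lie close. MRPS11 and MRPL46 on chromosome 10 lie 35 bases apart with no row between them (12663654 to 12667185 and 12667220 to 12669762). Their levels differed, at 73.2 FPKM for MRPS11 and 20.6 FPKM for MRPL46 in Ross 708 and at 75.4 FPKM for MRPS11 and 22.1 FPKM for MRPL46 in Isfahani, while both ratios were near 0, at -0.04 and -0.10. MRPL14 and MRPS18A, 398301 bases apart on chromosome 3 with 4 rows between them, had ratios of -0.43 and -0.54. All 8 genes on chromosome 1 and all 7 on chromosome 3 had lower values in Ross 708. The medians of all tested rows of those chromosomes were -0.03 and -0.08. Since 48 of the 55 tested genes were lower in all, such runs say little about location. The 4 genes on the sex chromosome Z (MRPL17, MRPS27, MRPS30 and MRPS36) had ratios from -0.54 to -0.22. All 617 tested rows on Z had a median of -0.03. Coordinates are as deposited. The submitters' processing notes name galGal5, but 439 rows lie on scaffolds whose names start with JH and 46 on LGE22C19W28_E50C23, names of the earlier galGal4 assembly, and none lies on chromosomes 29 to 33. The build of the coordinates is therefore unsettled.

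Genes that work with the mitochondrial ribosome were examined through lists chosen by function. Of all 11626 tested rows, 3.07% were called higher and 2.14% lower in Ross 708. An unadjusted p of 0.05 or less was given to 9.06% for a higher and to 7.96% for a lower value in Ross 708. The counts below stand beside these shares and were not tested against them. The 4 tested ribosome proteins outside the MRPL and MRPS names all had lower values in Ross 708, with a median log2 ratio of -0.51, no call by the authors' test and 1 unadjusted p at or under 0.05, that of ICT1. ICT1, a peptide release protein built into the large subunit, had 5.25 FPKM in Ross 708 and 8.96 FPKM in Isfahani (log2 ratio -0.67). DAP3, a GTP-binding protein of the small subunit, had 55.4 FPKM in Ross 708 and 78.6 FPKM in Isfahani, AURKAIP1 had 45.7 FPKM in Ross 708 and 65.8 FPKM in Isfahani, and PTCD3 had 10.3 FPKM in Ross 708 and 12.1 FPKM in Isfahani. Of 22 tested assembly factors, out of 31 listed, the authors' test called 0, at 7 unadjusted p-values of 0.05 or less, all for lower values in Ross 708. The median was -0.31, and the extremes were MPV17L2 (21.1 FPKM in Ross 708, 34.9 FPKM in Isfahani) and MALSU1 (14.3 FPKM in Ross 708, 9.25 FPKM in Isfahani). Of 11 tested translation factors, out of 21 listed, 0 were called by the same test and 3 reached an unadjusted p of 0.05, again all lower in Ross 708, with a median of -0.38. The extremes were the initiation factor gene MTIF3 (48.6 FPKM in Ross 708, 81.6 FPKM in Isfahani) and METAP1D (1.04 FPKM in Ross 708, 0.858 FPKM in Isfahani).

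Among factors of mitochondrial DNA and RNA, 1 gene was called. TFB2M, which opens the promoters of mitochondrial DNA for the mitochondrial RNA polymerase, had 6.37 FPKM in Ross 708 and 12.6 FPKM in Isfahani, a log2 ratio of -0.88 with a q-value of 0.0387 by the authors' deposited table. It was the only call among 13 tested DNA and RNA factors, out of 19 listed, whose median was -0.21. Of all tested rows 5.21% were called, so 1 call among 13 says little about the list. TFAM, the packaging protein of mitochondrial DNA, had 24.4 FPKM in Ross 708 and 38.2 FPKM in Isfahani without a call, at a q-value of 0.165 by the authors' deposited table. TOP1MT had the highest ratio of this list, 4.89 FPKM in Ross 708 and 3.37 FPKM in Isfahani. Of 7 tested regulators, out of 10 listed, of nuclear mitochondrial genes none was called by the authors' test. Against 17% of all tested rows, 3 of the 7 reached an unadjusted p of 0.05. They were GABPA (17.4 FPKM in Ross 708, 25.1 FPKM in Isfahani), PPARGC1A (0.415 FPKM in Ross 708, 0.837 FPKM in Isfahani) and MYC (7.64 FPKM in Ross 708, 4.66 FPKM in Isfahani).

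Lists of other translation and respiration genes were set beside these values. The 47 tested nuclear genes of the respiratory chain had a median log2 ratio of -0.29, and 38 had a lower value in Ross 708. Most, but not all, of their products assemble with proteins made on mitochondrial ribosomes. Among the 47 genes UQCRQ alone was called, lower in Ross 708 (2.31 FPKM, against 8.67 FPKM in Isfahani, q-value 0.012 by the authors' deposited table). Its level lay far below the list's medians of 201 FPKM in Ross 708 and 280 FPKM in Isfahani. Of all tested rows 2.14% were called lower. ATP5G3 had the highest ratio (418 FPKM in Ross 708, 315 FPKM in Isfahani). The 65 tested genes of the cytosolic ribosome had a median of 0.07, with 26 lower and 39 higher in Ross 708 and 0 calls by the authors' test, at 2 unadjusted p-values of 0.05 or less for higher and 2 for lower values. The median turned to -0.07 on rescaling to the same sum over all rows. Their extremes were RPL3L, a muscle form of a ribosomal protein (706 FPKM in Ross 708, 1274 FPKM in Isfahani), and RPL22L1 (708 FPKM in Ross 708, 459 FPKM in Isfahani). The 13 tested mitochondrial aminoacyl-tRNA synthetases, which load the transfer RNAs of the organelle, had a median of 0.01 with 6 lower and 7 higher, 0 called by the authors' test and 0 at an unadjusted p of 0.05 or less. Their extremes were AARS2 (2.09 FPKM in Ross 708, 3.34 FPKM in Isfahani) and CARS2 (7.05 FPKM in Ross 708, 4.14 FPKM in Isfahani). This median too turned below 0, to -0.09, on that rescaling, which lowered the respiratory chain median to -0.42 as well. Rescaling over tested rows and centring gave -0.24 for the respiratory chain and 0.12 for the cytosolic ribosome. For the synthetases they gave 0.05 and 0.06. The differences between lists were not tested. The 6 rows on the mitochondrial chromosome itself are listed at 0 in both breeds, so no value was available here for the messenger RNAs that these ribosomes translate.

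**Figure D4:**
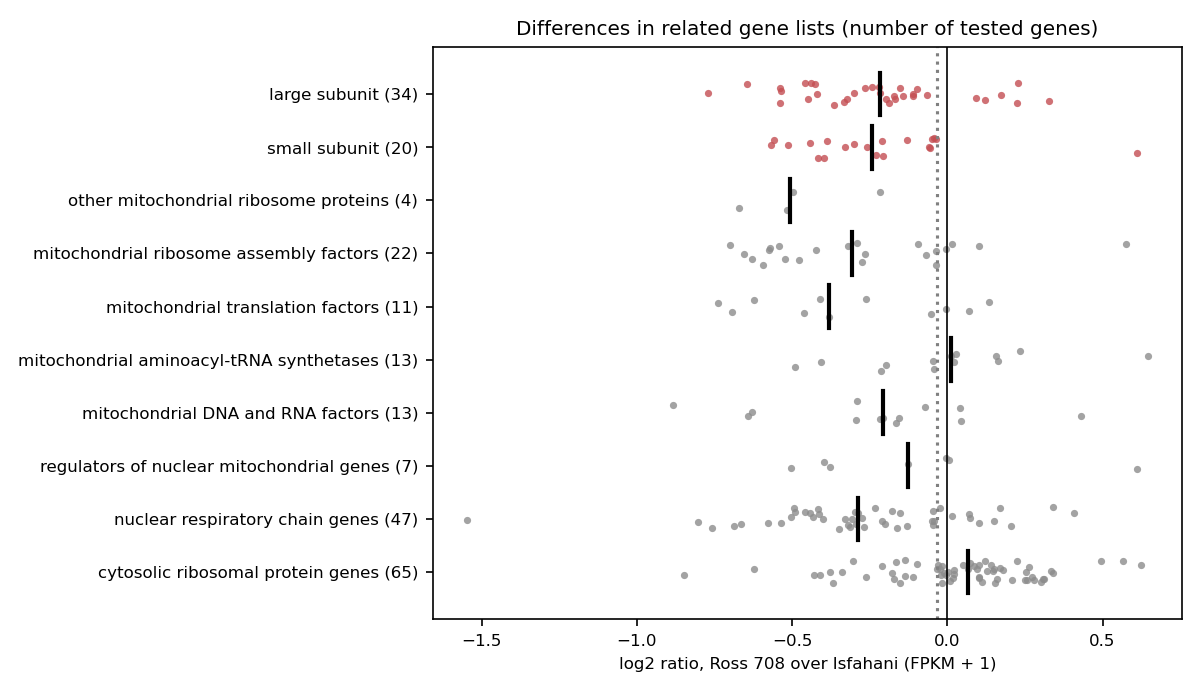
Log2 ratios of Ross 708 over Isfahani for the tested genes of each list, with the number of genes in brackets; points are genes (spread vertically for legibility), black bars list medians and the dotted line the median of all tested rows. Both mitochondrial ribosome subunits, the assembly factors, the translation factors and the respiratory chain genes have medians between -0.38 and -0.22. The cytosolic ribosome (0.07) and the synthetases (0.01) lie near 0, and turn to -0.07 and -0.09 on rescaling to the same sum. That rescaling, over all rows, lowered the other medians too, to -0.50 for translation factors and -0.42 for the respiratory chain.

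Tested markers of adipocytes, fibroblasts, leukocytes, endothelium and smooth muscle had higher values in Ross 708, but most of them were not called by the authors' test. Of all tested rows, 3.07% were called higher in Ross 708, and 53.5% had a ratio below 0. The counts below were not tested against these shares. The adipocyte markers summed to 405 FPKM in Ross 708 and 109 FPKM in Isfahani. Among them 5 of 5 were higher in Ross 708 and 3 were called (PLIN1, LPL and FABP4). Most of each sum came from FABP4 (320 FPKM in Ross 708, 86.7 FPKM in Isfahani). The fibroblast markers summed to 2817 FPKM in Ross 708 and 1727 FPKM in Isfahani, with 5 of 5 tested higher and 1 called (LUM). Leukocyte markers summed to 2831 FPKM in Ross 708 and 2194 FPKM in Isfahani, with 5 of 5 tested higher and 1 called (CSF1R). Endothelial markers summed to 35.0 FPKM in Ross 708 and 23.9 FPKM in Isfahani, with 4 of 4 higher and 0 called. Smooth muscle markers summed to 40.3 FPKM in Ross 708 and 24.0 FPKM in Isfahani, with 3 of 3 higher and 1 called (ACTA2). Most of the leukocyte sum came from CD74 (2734 FPKM in Ross 708, 2138 FPKM in Isfahani), which was not called and whose locus overlaps 14 other rows. PTPRC, a surface marker of all leukocytes, had 19.9 FPKM in Ross 708 and 13.0 FPKM in Isfahani, and CD3E, a T cell marker, had 7.78 FPKM in Ross 708 and 3.88 FPKM in Isfahani, both without a call. COL1A1 and the globin genes HBAA and HBAD are listed at 0 in both breeds. No marker of the heart list had a row. The part of these cell types in the lower mitochondrial ribosome values was not tested. In bulk tissue, fewer cells of a type and less RNA per cell cannot be told apart. Of the skeletal muscle markers, CACNA1S (94.4 FPKM in Ross 708, 96.5 FPKM in Isfahani) and PVALB (109 FPKM in Ross 708, 86.0 FPKM in Isfahani) were present in both breeds and MYH1A rose in Ross 708 (154 FPKM, against 80.0 FPKM in Isfahani, q = 0.0429 in the authors' deposited table). The fast troponin genes TNNC2, TNNI2 and TNNT3 stood at 11511, 13272 and 11956 FPKM in Ross 708 but are listed at 0 in Isfahani with the status HIDATA, which marks loci with too many fragments, and ACTA1 has no estimate in either breed.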

How the data were processed

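RNA was extracted with Trizol, libraries were made with a TruSeq kit, version 2, and paired-end reads of 150 bases came from a HiSeq 2000, per the labels' protocols. FastQC 0.11.5, Trimmomatic, HISAT2 and Cufflinks 2.2.1 are named in the submitters' processing notes; neither the gene annotation nor the library scaling is recorded there. The deposited table has Cuffdiff's layout, with 1 FPKM value per breed, a log2 fold change, a p-value and a q-value per row, per the file headers. The deposited log2 fold changes were not printed, and the ratios given were computed here with a pseudocount of 1 FPKM, which understates changes of low genes. Adjusting the deposited p-values by Benjamini-Hochberg over the 11626 rows of status OK returned the deposited q-values to within 5.22e-07. No value per library was used, so no test of this work's own was possible, depth is unknown, and p-values speak at most for the spread between these pools. Nothing says that the pools came from separate flocks.

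Rows were selected by symbol with Python 3.11.15 and pandas 2.3.3. For a symbol on 2 rows the tested row with the higher mean FPKM was used; the second rows of MRPL18 and MRPS27 had ratios of -0.15 and -0.36. Of the 55 genes, 16 have a locus that overlaps another row, and no source states that strand was used in counting, so their values are less certain. A gene was called at a q-value at or under 0.05. Subunit and origin follow the structure-based names of mammalian ribosomes. Genes were named by rule: those at an unadjusted p of 0.05 or less and untested genes. To these were added the 8 highest and 6 lowest by level and the 8 most extreme ratios in each direction. Of other lists the called genes were named, and also the extreme genes except in most marker lists. Further genes were named after their values were seen. The members, lists and groups within subunits were chosen with earlier results of these data known. A limma fit was foreseen had the table held values per library. The helper functions were tested on simulated data. Enrichment sheets were not used. Protein, promoter and genome sequences were not used here. The result of the nerve marker list is not reported here.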

Additional observations from a re-analysis of the deposited data

How the results depend on the processing

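The direction of the list's median was kept under all alternatives run. Rescaling both breeds to the same sum over all rows moved it to -0.36, and to -0.35 for the large and -0.37 for the small subunit; that sum includes 39 HIDATA rows, which hold 72193 FPKM in Ross 708 and are all listed at 0 in Isfahani, and the median of all tested rows became -0.15 with it. Under pseudocounts of 0.1 and 0.01 FPKM, rescaling over tested rows, centring, a minimum of 1 FPKM, genes without overlap, single-row symbols and, chosen after seeing the data, both rows of a symbol, shared rows added, no Z genes or no MRPS36, it lay between -0.24 and -0.18. The share of genes lower in Ross 708 lay between 81.8% and 90.9%. The distance of the list's median from that of all tested rows was -0.19 to -0.21 on each scale. Rows of like level lay nearer to the list. Without rescaling their median was -0.12, against -0.23 for the list and -0.03 for all tested rows. At a q-value of 0.01 the counts were 0 and 0; at an unadjusted p of 0.05 they were 1 higher and 4 lower. Signs changed for MRPL22 and MRPL37 on the sum over all rows, for MRPS11 and MRPS26 on the sum over tested rows, and for these and MRPS22 on centring. Of 135 values of 27 named genes, 27 moved by more than 0.1, all by the sum over all rows. No paired analysis was possible because the table holds 1 value per breed, and no replicate could be left out for the same reason; both were planned and not run.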
